A study of Mus musculus with 9 samples.

Results

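The 30 genes described here encode the enzymes, regulators and 1 carrier protein of cholesterol synthesis and the core enzymes of fatty acid synthesis. They were taken by gene symbol from the 54532 genes with an ID and a symbol in the count table, and all 30 had an entry. RNA of 3 related mouse stem cell types was sequenced after poly-A selection, with 3 libraries of each, and all cells carried the strain background Sv129 x GOF/GFP F1. ABSCs are cells labelled as trophoblast stem cell-like, grown in Activin A and BMP4 and collected at passage 25 to 30. ALSCs, collected at passage 20 to 25, are labelled as a stem cell; the protocol gives the recipe of Activin A and LIF under the name of the other medium, and this recipe is taken here to be theirs. AFSCs, grown in Activin A and bFGF and collected at passage 15 to 20, are blastocyst-derived cells labelled as epiblast stem cell-like. ABSCs and ALSCs were both made from AFSCs by over 5 passages in the new medium, and all media contained Activin A with N2 and B27 supplements. Passage and medium therefore cannot be told apart from cell type, and an RNA isolation kit named only for ALSCs cannot be told apart from that cell type either. Each cell type has libraries 1, 2 and 3 by label, with nothing said of what a number stands for or of separate cultures, so p-values measure the spread between these libraries, which may be technical. The 3 libraries numbered 1 stand apart from the other 6: counts of library 1 differed from those of libraries 2 and 3 of its cell type by a chi-square per gene of 12.8 to 26.2, against 2.11 to 4.24 between libraries 2 and 3.

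Cholesterol synthesis starts from acetyl-CoA, passes through mevalonate and farnesyl diphosphate to squalene, and ends with a series of sterol-modifying steps. Fatty acid synthesis draws on the same acetyl-CoA, which is carboxylated and then built into chains that are elongated and desaturated. Both routes are controlled by SREBP transcription factors. When membrane sterol is low, SCAP carries SREBP from the endoplasmic reticulum to the Golgi, where it is cut and released to the nucleus; INSIG proteins hold SCAP back when sterol is plentiful. Dividing stem cells need sterol and fatty acids for new membranes.

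Library totals ranged from 19020419 to 21627656 counts, which puts the floor of 3 counts at 0.138 to 0.157 CPM (normalised counts, scaled to an equal library size with TMM factors) and leaves counting error small for the genes below. Mitochondrial transcripts took 0.794% of the counts in ABSC 1 and 1.36% to 1.68% in the other 8 libraries. Pou5f1, the pluripotency factor, stood at 909 to 1261 CPM. Of the 6 listed trophoblast stem cell markers, Esrrb stood at 87.5 to 116 CPM, Eomes at 37.4 to 165, Tfap2c at 2.22 to 20.8 and Cdx2 at 0 to 6.43, while Gata3 and Elf5 reached at most 1.10 and 0.329 CPM, also in the cells labelled as trophoblast stem cell-like. Summed levels were 10.1 to 25.1 CPM over the 9 libraries for 7 fibroblast markers, 4.03 to 10.4 CPM for 9 visceral endoderm markers, of which Ttr and Apoa4 had no count, and at most 19.2 CPM for 5 neural markers.

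Promoters are shown for genes that carried the results: Hmgcs1 as an early mevalonate enzyme, Hsd17b7, Cyp51 and Insig1 as genes that were low in libraries numbered 1, and Srebf2 as a regulator that differed between cell types. Each run covers the 180 bases before the RefSeq transcript start (GRCm38.p6). Capitals mark, on either strand, a sterol regulatory element core (TCACCCCAC with up to 1 letter differing), a CCAAT box (CCAAT) and a GC box (GGGCGG).
Hmgcs1 (chr13:119690171-119690350, plus strand): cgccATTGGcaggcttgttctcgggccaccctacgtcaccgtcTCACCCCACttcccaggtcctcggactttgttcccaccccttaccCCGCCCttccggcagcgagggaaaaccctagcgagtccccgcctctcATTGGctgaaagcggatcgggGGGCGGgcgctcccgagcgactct
Hsd17b7 (chr1:169969206-169969385, minus strand): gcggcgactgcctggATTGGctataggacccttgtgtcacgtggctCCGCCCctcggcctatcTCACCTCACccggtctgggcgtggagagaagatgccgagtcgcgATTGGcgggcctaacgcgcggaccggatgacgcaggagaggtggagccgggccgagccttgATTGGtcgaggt
Cyp51 (chr5:4104698-4104877, minus strand): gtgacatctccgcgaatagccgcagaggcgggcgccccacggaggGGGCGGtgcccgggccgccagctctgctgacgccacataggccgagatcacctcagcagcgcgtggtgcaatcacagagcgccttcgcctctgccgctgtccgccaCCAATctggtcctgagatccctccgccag
Insig1 (chr5:28071232-28071411, plus strand): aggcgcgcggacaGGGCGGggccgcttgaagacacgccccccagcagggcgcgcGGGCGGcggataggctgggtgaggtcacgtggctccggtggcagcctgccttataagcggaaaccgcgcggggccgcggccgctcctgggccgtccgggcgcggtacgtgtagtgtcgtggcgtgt
Srebf2 (chr15:82147089-82147268, plus strand): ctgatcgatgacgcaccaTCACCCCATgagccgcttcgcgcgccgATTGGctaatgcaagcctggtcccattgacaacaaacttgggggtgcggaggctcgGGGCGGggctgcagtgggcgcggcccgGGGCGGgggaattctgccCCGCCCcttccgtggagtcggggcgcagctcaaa
RefSeq promoters of 300 bases, from 250 before to 50 after the start, were given for 24 of the 30 genes. A CCAAT box, the letters that NF-Y binds, was found in 20 of these 24 genes (83.3%), against 43.0% of the 11122 tested genes with a promoter. A GC box was also found in 20 (83.3%, against 68.6%). The sterol regulatory element core was found in 5 (20.8%, against 12.6%), namely Hmgcs1, Hsd17b7, Srebf2, Acat2 and Nsdhl, with all letters matching in Hmgcs1. The E box CACGTG, which is not in capitals, was found in 5 (20.8%, against 11.4%). Over all 32851 promoters of the same length, the shares were 37.4%, 35.7%, 9.82% and 7.15% in the order of these 4 motifs with the CCAAT box first. These matches are letters in a window and were not tested as sites.

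All 30 genes passed the filter on low counts, and all were above 1 CPM in every library. Per kilobase of the deposited gene length (RPKM, computed from the counts), Scd2, a fatty acid desaturase, was the highest at a mean of 337 RPKM over 9 libraries (260.0 to 414). Acly, which makes cytosolic acetyl-CoA from citrate, and Fasn, the fatty acid synthase, followed at 159 (147 to 169) and 155 RPKM (113 to 176), and their ranges overlapped. Acat2, the thiolase that starts the mevalonate pathway, stood at 125 RPKM (101 to 152), and Hmgcs1, the HMG-CoA synthase, at 111 RPKM (83.6 to 139), again with overlapping ranges. Transcripts of Acat2 matched Tcp1, which averaged 607 CPM, over 445 bases at 98.7% identity. They also matched Acat3 over 1477 bases at 97.7% identity, so the level of Acat2 is uncertain. Apart from Scd2 above Acly and Insig2 above Fdps, every pair of neighbours in the order of levels overlapped over the 9 libraries. At the low end were Scap at 8.43, Tm7sf2 at 6.96 and Insig2 at 6.51 RPKM. The level of Tm7sf2 is uncertain, since its gene model overlaps Vps51 over 9356 bases on the same strand. Fdps, the farnesyl diphosphate synthase, came last at 2.85 RPKM, but this level is uncertain: its transcripts matched Gm3571 over 1062 bases at 98.9% identity, and Gm3571 averaged 29.6 CPM, against 12.0 CPM for Fdps itself.

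**Figure D1:**
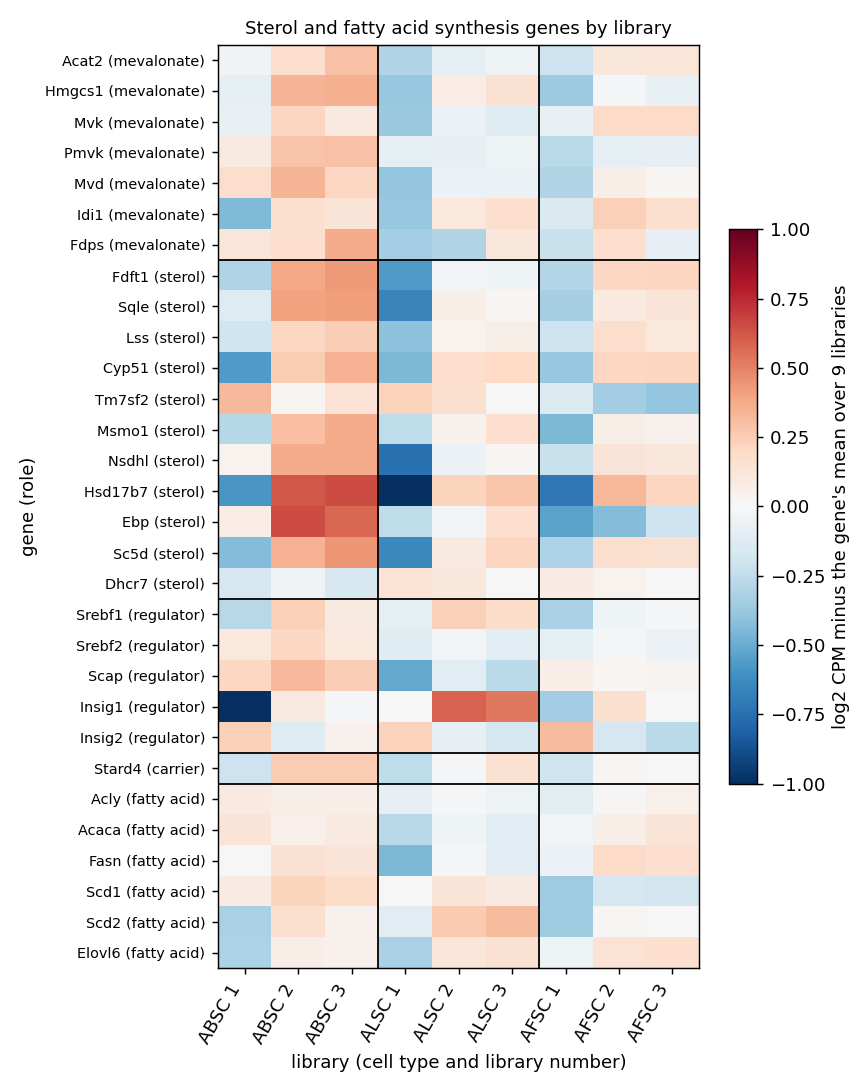
Log2 CPM of each gene (down the page, grouped by role) in each of the 9 libraries (ABSC, ALSC and AFSC from left to right), as the difference from the gene's own mean over the 9 libraries; the colour scale ends at 1 in either direction. The first column of each cell type, the library numbered 1, is blue for most genes, with Tm7sf2 and Insig2 as the 2 genes called higher there.

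Libraries numbered 1 had less of most of these transcripts than libraries numbered 2 and 3 of the same cell types. Number 1 was singled out after its libraries were seen to stand apart. The 30 genes were also chosen with earlier results of these data known. In a fit with cell type and library number 1 as terms, 22 of the 30 genes were lower in number 1 (17.7% of the 16178 tested genes were lower) and 2 were higher (19.3% were higher), so that 24 of 30 differed where 37.0% of all tested genes did. Their median log2 difference was -0.34, while the median over all tested genes was 0.01. The tested genes were not matched to the 30 in level, and a difference is harder to call at low counts. Of the 30 genes, 25 were at 10 RPKM or more in every library. Number 1 was the lowest of the 3 libraries in every cell type for 23 genes (20.2% of tested genes) and the highest in every cell type for 2 (21.5%). All 3 libraries numbered 1 lay below all 6 others for 13 genes (9.41%) and above them for 1, Insig2 (9.30%). Scaled by library size alone, 62.6% of all genes called lay higher in number 1, against 52.2% with TMM scaling, and 22 of the 30 genes were still called. In bulk RNA, less RNA per cell and fewer cells of a kind cannot be told apart.

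Among the mevalonate enzymes, 6 of 7 were lower in number 1, and the other was Fdps. Hmgcs1 (chr13:119690379-119708260 in GRCm38) had 471 CPM in ABSC 1, 384 CPM in ALSC 1 and 389.7 CPM in AFSC 1, against 632 and 640.3 CPM in ABSC 2 and 3, 527 and 557 CPM in ALSC 2 and 3, and 495 and 475 CPM in AFSC 2 and 3. Every library numbered 1 lay below every other library (log2 fold change -0.41 ± 0.04 SE, adjusted p = 1.04e-06, edgeR). Idi1, the isomerase that makes dimethylallyl diphosphate, had 84.2 CPM in ABSC 1, 88.2 CPM in ALSC 1 and 104 CPM in AFSC 1, against 128 and 125 CPM in ABSC 2 and 3, 123 and 129 CPM in ALSC 2 and 3, and 135 and 128 CPM in AFSC 2 and 3. Its groups also did not overlap, and it was 1.4-fold lower in number 1 (adjusted p = 1.01e-06, edgeR). Acat2 was lower with a log2 difference of -0.27 ± 0.04, the kinase Mvk with -0.26 ± 0.05 and the decarboxylase Mvd with -0.25 ± 0.05, with libraries of the groups overlapping across cell types. The smallest called difference among these enzymes was that of Pmvk, the phosphomevalonate kinase (log2 fold change -0.14 ± 0.05 SE, adjusted p = 0.0238, edgeR). It was lost without ABSC 1 (adjusted p = 0.173), without AFSC 1 (0.0752), with library-size scaling (0.114) and without all ABSC or all AFSC libraries (0.198 and 0.120).

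The sterol enzymes from squalene synthesis on held the 3 largest differences of the 30 genes, and 9 of the 11 were lower in number 1, with a median log2 difference of -0.49. Their summed level was 1280.4 to 1446 CPM in the libraries numbered 1, against 1810.5 to 2192 CPM in the other 6. Hsd17b7, the ketoreductase of sterol demethylation (chr1:169949535-169969241), had 45.0 CPM in ABSC 1, 33.3 CPM in ALSC 1 and 41.1 CPM in AFSC 1, against 104 and 106 CPM in ABSC 2 and 3, 78.6 and 81.9 CPM in ALSC 2 and 3, and 84.8 and 78.3 CPM in AFSC 2 and 3. The groups were far apart, and Hsd17b7 was 2.23-fold lower in number 1 (log2 fold change -1.16 ± 0.06 SE, adjusted p = 2.18e-10, edgeR). Cyp51, the lanosterol demethylase (chr5:4081145-4104746), had 218 CPM in ABSC 1, 237 CPM in ALSC 1 and 249 CPM in AFSC 1, against 385 and 412 CPM in ABSC 2 and 3, 364 and 370.1 CPM in ALSC 2 and 3, and 374 and 374 CPM in AFSC 2 and 3. Every library numbered 1 was lower than every other library (log2 fold change -0.70 ± 0.05 SE, adjusted p = 2.12e-08, edgeR), and the 6 libraries numbered 2 and 3 lay within 364 to 412 CPM in all 3 cell types. Sqle, the squalene epoxidase and a rate-controlling step, had 237 CPM in ABSC 1, 164 CPM in ALSC 1 and 206 CPM in AFSC 1, against 343 and 347 CPM in ABSC 2 and 3, 269.6 and 262 CPM in ALSC 2 and 3, and 278 and 283 CPM in AFSC 2 and 3. Here number 1 was lowest within each cell type, and the highest of them, ABSC 1, still lay under all libraries numbered 2 and 3 (log2 fold change -0.56 ± 0.05 SE, adjusted p = 9.44e-08, edgeR).

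Sc5d, the lathosterol desaturase, was lower in number 1 with a log2 difference of -0.69 ± 0.06, and Fdft1, the squalene synthase, with -0.58 ± 0.04. Msmo1, the methylsterol oxidase, Nsdhl, the dehydrogenase that follows it, Lss, which closes the lanosterol rings, and Ebp, the sterol isomerase, gave log2 differences of -0.49, -0.46, -0.41 and -0.37. All of these passed the test, with adjusted p between 4.78e-08 (Fdft1) and 0.000768 (Ebp) by edgeR. Tm7sf2, a sterol reductase, went the other way and was higher in number 1 (log2 fold change 0.21 ± 0.06 SE, adjusted p = 0.0116, edgeR), a call that was lost without ABSC 1 (adjusted p = 0.0621) and without all ABSC libraries (0.0864). The files' gene model of Tm7sf2 spans Vps51 over 9356 bases on the same strand, so reads of the 2 genes may not be told apart. Dhcr7, the reductase of the final step, was not called (log2 fold change 0.03 ± 0.05 SE, adjusted p = 0.663, edgeR; 95% interval -0.07 to 0.13). Stard4, a cytosolic sterol carrier, was lower with a log2 difference of -0.33 ± 0.05 (adjusted p = 6.75e-05, edgeR).

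**Figure D2:**
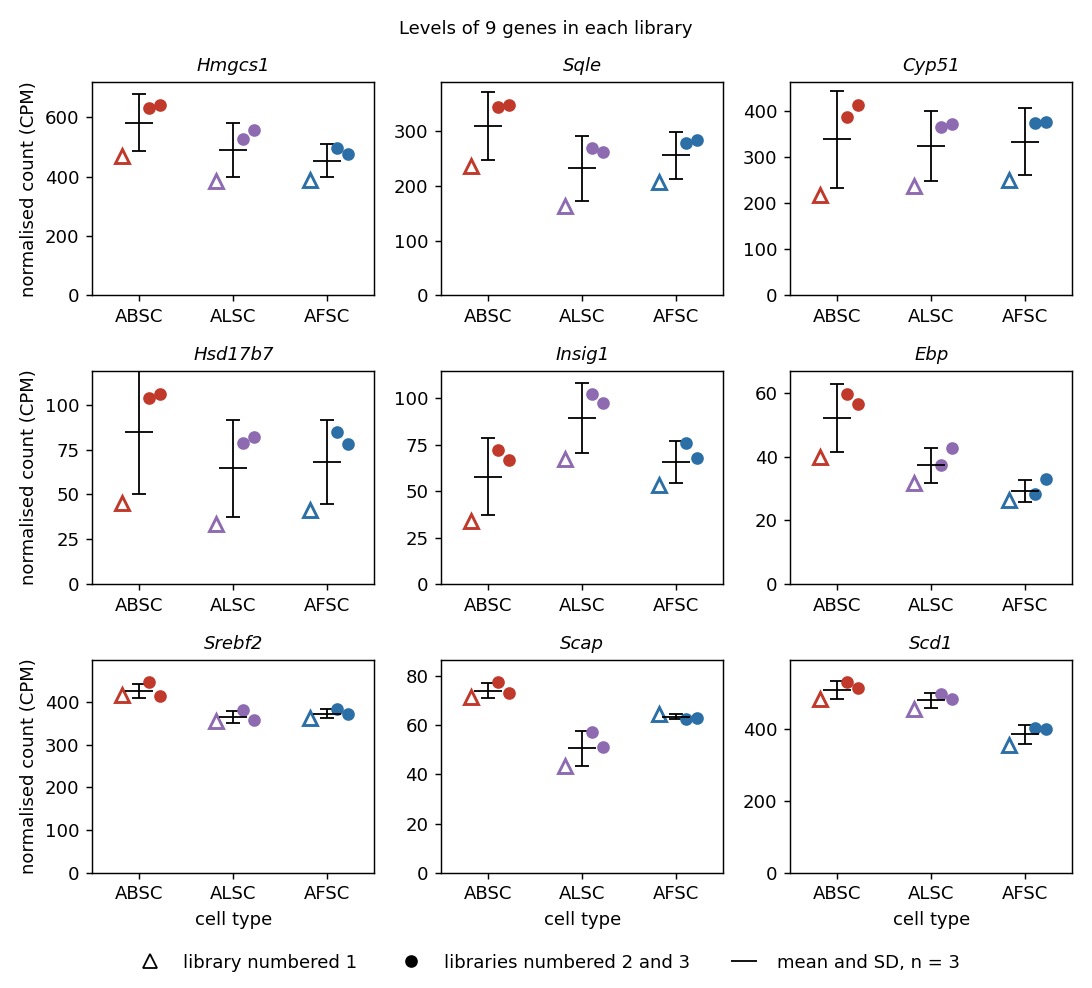
Normalised counts (CPM, linear axis from 0) of 9 genes in each library, with ABSC, ALSC and AFSC from left to right; open triangles are libraries numbered 1, filled circles numbers 2 and 3, and bars the mean and SD of 3. For Hmgcs1, Sqle, Cyp51 and Hsd17b7 the triangles lie below all circles, while for Srebf2, Scap and Scd1 the cell types separate more than the library numbers.

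The regulators did not move as one group. Srebf2, the precursor of the SREBP that drives sterol genes, had 417 CPM in ABSC 1, 356 CPM in ALSC 1 and 362 CPM in AFSC 1, against 446 and 415 CPM in ABSC 2 and 3, 380.1 and 358 CPM in ALSC 2 and 3, and 383 and 372 CPM in AFSC 2 and 3, and number 1 was the lowest library in ALSC and AFSC but lay between the others in ABSC (log2 fold change -0.05 ± 0.04 SE, adjusted p = 0.321, edgeR; 95% interval -0.14 to 0.03). Scap, the SREBP escort, was not called either (log2 fold change -0.12 ± 0.06 SE, adjusted p = 0.153, edgeR; 95% interval -0.24 to 0.01). Srebf1, whose products drive mainly fatty acid genes, was lower in number 1 (log2 fold change -0.35 ± 0.05 SE, adjusted p = 1.56e-05, edgeR) with no overlap. Insig1, itself an SREBP target, had 34.0 CPM in ABSC 1, 67.4 CPM in ALSC 1 and 53.3 CPM in AFSC 1, against 72.1 and 66.9 CPM in ABSC 2 and 3, 102 and 97.6 CPM in ALSC 2 and 3, and 75.9 and 67.8 CPM in AFSC 2 and 3. It was the lowest of its cell type in each library numbered 1 (log2 fold change -0.66 ± 0.09 SE, adjusted p = 0.000388, edgeR), but ALSC 1 lay above ABSC 3, so the groups overlapped. Insig2, its paralog, had 26.4 CPM in ABSC 1, 26.3 CPM in ALSC 1 and 27.9 CPM in AFSC 1, against 20.4 and 23.0 CPM in ABSC 2 and 3, 21.1 and 19.9 CPM in ALSC 2 and 3, and 19.9 and 18.6 CPM in AFSC 2 and 3. It was thus higher in all 3 libraries numbered 1 (log2 fold change 0.39 ± 0.07 SE, adjusted p = 0.000495, edgeR). The opposite signs of Insig1 and Insig2 held under each of the 16 alternatives tried, with log2 differences of -0.78 to -0.50 and 0.32 to 0.45.

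Of the 6 fatty acid genes, 4 were lower in number 1. Scd2 had 1453 CPM in ABSC 1, 1678 CPM in ALSC 1 and 1418 CPM in AFSC 1, against 2025 and 1874 CPM in ABSC 2 and 3, 2179.7 and 2258 CPM in ALSC 2 and 3, and 1829 and 1816 CPM in AFSC 2 and 3. The groups did not overlap (log2 fold change -0.40 ± 0.04 SE, adjusted p = 4.85e-07, edgeR). Elovl6, which elongates palmitate, also showed no overlap (log2 fold change -0.35 ± 0.05, adjusted p = 1.52e-05, edgeR). Fasn had 1680.3 CPM in ABSC 1, 1239 CPM in ALSC 1 and 1616 CPM in AFSC 1, against 1879.9 and 1849.6 CPM in ABSC 2 and 3, 1664 and 1563 CPM in ALSC 2 and 3, and 1926 and 1895 CPM in AFSC 2 and 3. Its level in AFSC 1 lay above that of ALSC 3, so the groups overlapped, but number 1 was lowest in each cell type (log2 fold change -0.26 ± 0.04 SE, adjusted p = 0.000158, edgeR). Scd1, the paralog of Scd2, had the smallest called difference (log2 fold change -0.13 ± 0.04 SE, adjusted p = 0.0109, edgeR), and the call was lost with library-size scaling (adjusted p = 0.0611) and without all ABSC (0.0598) or all AFSC libraries (0.0920). Acly and Acaca, the acetyl-CoA carboxylase of the first committed step, were not called (95% intervals -0.14 to 0.03 and -0.18 to 0.01 on the log2 scale). Acaca shares 6118 bases at 99.2% identity with Gm5182, which averaged 49.7 CPM, so its level is uncertain.

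**Figure D3:**
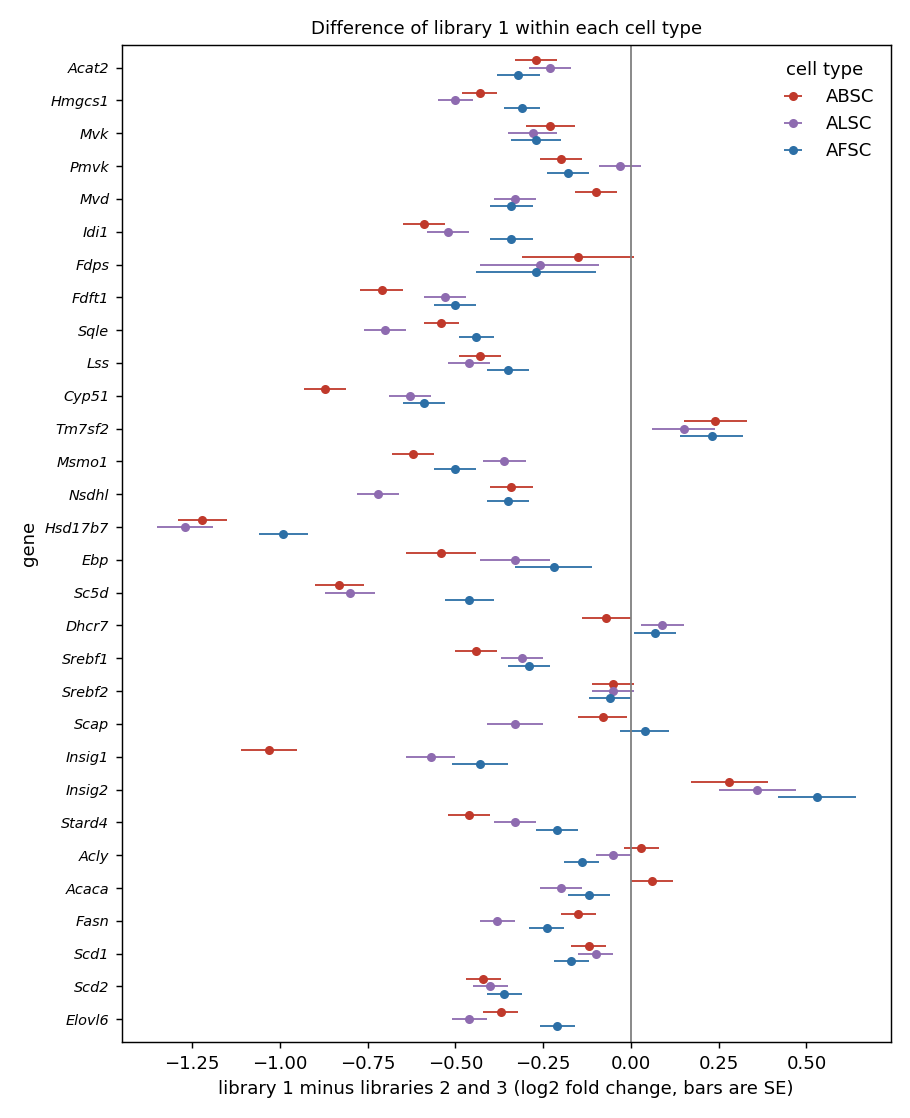
Log2 difference of library 1 from libraries 2 and 3 of the same cell type (horizontal axis) for each gene (down the page), in ABSC, ALSC and AFSC; bars are SEs from the fit with 1 difference per cell type. Hsd17b7 lies farthest to the left in each cell type, and Tm7sf2 and Insig2 lie to the right of 0 in all 3.

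The difference of number 1 varied among the cell types for 4 of 30 genes by a test of that variation (8.65% of tested genes). Insig1 was lower in number 1 with a log2 difference of -1.03 ± 0.08 in ABSC and -0.57 ± 0.07 in ALSC, against -0.43 ± 0.08 in AFSC (adjusted p = 0.00244, edgeR). Cyp51 gave -0.87 ± 0.06 in ABSC and -0.63 ± 0.06 in ALSC, against -0.59 ± 0.06 in AFSC (adjusted p = 0.0379). Sc5d gave -0.83 ± 0.07 in ABSC and -0.80 ± 0.07 in ALSC, against -0.46 ± 0.07 in AFSC (adjusted p = 0.0211). Nsdhl gave -0.34 ± 0.06 in ABSC and -0.72 ± 0.06 in ALSC, against -0.35 ± 0.06 in AFSC (adjusted p = 0.0043). Each of these values rests on 1 library numbered 1 per cell type, and the test takes its error from libraries 2 and 3 with 3 residual degrees of freedom. Genes that it did not call are not shown to be alike: Scap gave -0.08 ± 0.07 in ABSC and -0.33 ± 0.08 in ALSC, against 0.04 ± 0.07 in AFSC.

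With numbers 1 to 3 treated as plain replicates, 6 of the 30 genes (20.0%) differed among the cell types, against 14.8% of all tested genes. The median log2 fold change of the 30 was 0.15 in ABSCs against AFSCs, -0.06 in ALSCs against AFSCs and 0.22 in ABSCs against ALSCs, where the median over all tested genes was 0, 0 and -0.01. In ABSCs against AFSCs, 4 genes differed and all 4 were higher in ABSCs (7.98% of tested genes differed, 3.98% higher). At an unadjusted p under 0.05, 8 were higher and 1 was lower by edgeR (20.3% of tested genes differed at that threshold), and a DESeq2 test called 5 higher and 0 lower (10.7% differed). With library number as a block, which takes out the difference of number 1, 12 genes were higher and 1 was lower in ABSCs, where 19.4% of tested genes differed: Hmgcs1, Pmvk, Mvd, Sqle, Tm7sf2, Msmo1, Nsdhl, Hsd17b7, Ebp, Srebf2, Scap and Scd1 were higher and Dhcr7 was lower. All 3 ABSC libraries lay above all 3 AFSC libraries for 8 genes (13.9% of tested genes).

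Ebp had 40.0, 59.7 and 56.6 CPM in ABSC 1 to 3, against 26.3, 28.3 and 32.9 CPM in AFSC 1 to 3. The groups did not overlap, and the means were 52.1 ± 10.6 CPM in ABSCs and 29.2 ± 3.42 CPM in AFSCs (SD, n = 3 each), a difference of 1.79-fold (log2 fold change 0.84 ± 0.16 SE, adjusted p = 0.0112, edgeR). The call was lost without ABSC 2, ABSC 3 or AFSC 2 (adjusted p = 0.0544, 0.0515 and 0.0571). Scd1 (chr19:44394451-44407709) had 483, 530.2 and 516 CPM in ABSC 1 to 3, against 356, 402 and 399.8 CPM in AFSC 1 to 3, again without overlap (log2 fold change 0.40 ± 0.06 SE, adjusted p = 0.00422, edgeR). Scd1 kept its call under each of the 17 alternatives. Pmvk had 96.9, 111 and 112 CPM in ABSC 1 to 3, against 75.5, 85.0 and 86.3 CPM in AFSC 1 to 3, without overlap (log2 fold change 0.38 ± 0.08 SE, adjusted p = 0.0136, edgeR), but lost its call without ABSC 2 or ABSC 3 (adjusted p = 0.0710 and 0.0665).

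Tm7sf2 had 48.1, 39.0 and 42.4 CPM in ABSC 1 to 3 and 45.0, 43.0 and 38.3 CPM in ALSC 1 to 3, against 34.9, 30.1 and 29.4 CPM in AFSC 1 to 3. Both cell types lay above AFSCs in every library (log2 fold change 0.46 ± 0.11 SE, adjusted p = 0.0282 for ABSCs and log2 fold change 0.42 ± 0.11 SE, adjusted p = 0.0443 for ALSCs, edgeR). The gene model of Tm7sf2 overlaps Vps51 over 9356 bases on the same strand, so these counts may include reads of Vps51. Vps51 itself averaged 1.33 CPM, against 38.9 CPM for Tm7sf2. Reads in the overlap may not be counted for Vps51, so that value does not show Vps51 to be scarce. For ABSCs the call was lost with library-size scaling (adjusted p = 0.0574) and without ABSC 1, ABSC 3, AFSC 2 or AFSC 3 (0.0520, 0.0744, 0.116 and 0.120). For ALSCs it was lost without any one of the 7 libraries other than ABSC 1 and AFSC 1, with adjusted p of 0.0545 (without ALSC 3), 0.0557 (ABSC 2), 0.0711 (ABSC 3), 0.103 (ALSC 1), 0.118 (ALSC 2), 0.174 (AFSC 2) and 0.181 (AFSC 3).

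In ALSCs against AFSCs, 2 genes differed, Tm7sf2 and Scd1, both higher in ALSCs (7.04% of tested genes differed). At an unadjusted p under 0.05, 2 were higher and 4 lower by edgeR (21.5% of tested genes differed), and DESeq2 called 2 higher and 1 lower (10.5% differed). Scd1 had 457, 498 and 484 CPM in ALSC 1 to 3, against 356, 402 and 399.8 CPM in AFSC 1 to 3, without overlap (log2 fold change 0.31 ± 0.06 SE, adjusted p = 0.0192, edgeR). That call was lost without ALSC 2, ALSC 3, AFSC 1, AFSC 2 or AFSC 3 (adjusted p = 0.0763, 0.0582, 0.0628, 0.0655 and 0.0669). With the replicate block, 6 genes were higher and 8 lower, where 22.2% of tested genes differed. The 6 higher were Tm7sf2, Scd1, Ebp, Srebf1, Insig1 (log2 fold change 0.43) and Scd2, and the 8 lower were Acat2, Mvk, Fdft1, Sqle, Nsdhl, Scap, Acaca and Fasn (log2 fold change -0.29).

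In ABSCs against ALSCs, 4 genes differed and all were higher in ABSCs (11.0% of tested genes differed, 5.41% higher). At an unadjusted p under 0.05, 12 were higher and 2 lower by edgeR (26.0% of tested genes differed), and DESeq2 called 6 higher and 0 lower (14.5% differed). With library-size scaling alone, 35.1% of all genes called lay higher in ABSCs, against 49.3% with TMM; of the 4 genes Scap alone was then called, beside Dhcr7, which was lower. Scap (chr9:110333288-110384950) had 71.5, 77.5 and 73.4 CPM in ABSC 1 to 3, against 43.3, 57.3 and 51.3 CPM in ALSC 1 to 3. The groups did not overlap, ABSCs were 1.47-fold higher (log2 fold change 0.55 ± 0.09 SE, adjusted p = 0.00506, edgeR), and the call held under each of the 17 alternatives. Srebf2 had 417, 446 and 415 CPM in ABSC 1 to 3, against 356, 380.1 and 358 CPM in ALSC 1 to 3. These also did not overlap (log2 fold change 0.22 ± 0.05 SE, adjusted p = 0.0243, edgeR), but the call was lost without ABSC 2, ABSC 3 or ALSC 3 (adjusted p = 0.112, 0.0556 and 0.0688), with library-size scaling (0.0603) and with only the 6 libraries compared (0.0775). With library number as a block, Srebf2 passed (adjusted p = 0.00143, edgeR).

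Mvd had 143, 161 and 146 CPM in ABSC 1 to 3, against 97.0, 121 and 122 CPM in ALSC 1 to 3, without overlap (log2 fold change 0.40 ± 0.11 SE, adjusted p = 0.0481, edgeR). Pmvk had 96.9, 111 and 112 CPM in ABSC 1 to 3, against 85.6, 86.2 and 88.2 CPM in ALSC 1 to 3, without overlap (log2 fold change 0.30 ± 0.08 SE, adjusted p = 0.0327, edgeR). In this fit, which leaves out the library number, neither call was stable. That of Mvd was kept without ABSC 1 or AFSC 1 but lost without each of the other 7 libraries (adjusted p = 0.168 without ABSC 2, 0.103 without ABSC 3, 0.104 without ALSC 1, 0.0702 without ALSC 2, 0.0667 without ALSC 3, 0.0638 without AFSC 2 and 0.0697 without AFSC 3). That of Pmvk was lost without ABSC 2 (0.128), ABSC 3 (0.116), ALSC 1 (0.0634), ALSC 2 (0.0838), ALSC 3 (0.0733) or AFSC 2 (0.0537). Both were also lost with library-size scaling (0.0617 for Mvd and 0.0604 for Pmvk) and with only the 6 libraries compared (0.0633 and 0.0645). With library number as a block, both passed (adjusted p = 0.000138 for Mvd and 0.000897 for Pmvk, edgeR).

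The replicate block raised the count in ABSCs against ALSCs to 17 higher and 3 lower, where 28.5% of tested genes differed. The 3 that were lower in ABSCs were Insig1 (log2 -0.66, adjusted p = 0.000961, edgeR), Dhcr7 (log2 -0.21) and Scd2 (log2 -0.19). Insig1 had 34.0, 72.1 and 66.9 CPM in ABSC 1 to 3, against 67.4, 102 and 97.6 CPM in ALSC 1 to 3. The groups overlapped through ALSC 1, which lay below ABSC 2. Among the 17 that were higher were 6 of the 7 mevalonate enzymes, all but Idi1, together with Fdft1 (log2 0.39), Sqle (0.43), Lss (0.19), Nsdhl (0.52), Hsd17b7 (0.40), Ebp (0.47) and Sc5d (0.23). All 3 ABSC libraries lay above all 3 ALSC libraries for 10 genes (13.9% of tested genes).

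**Figure D4:**
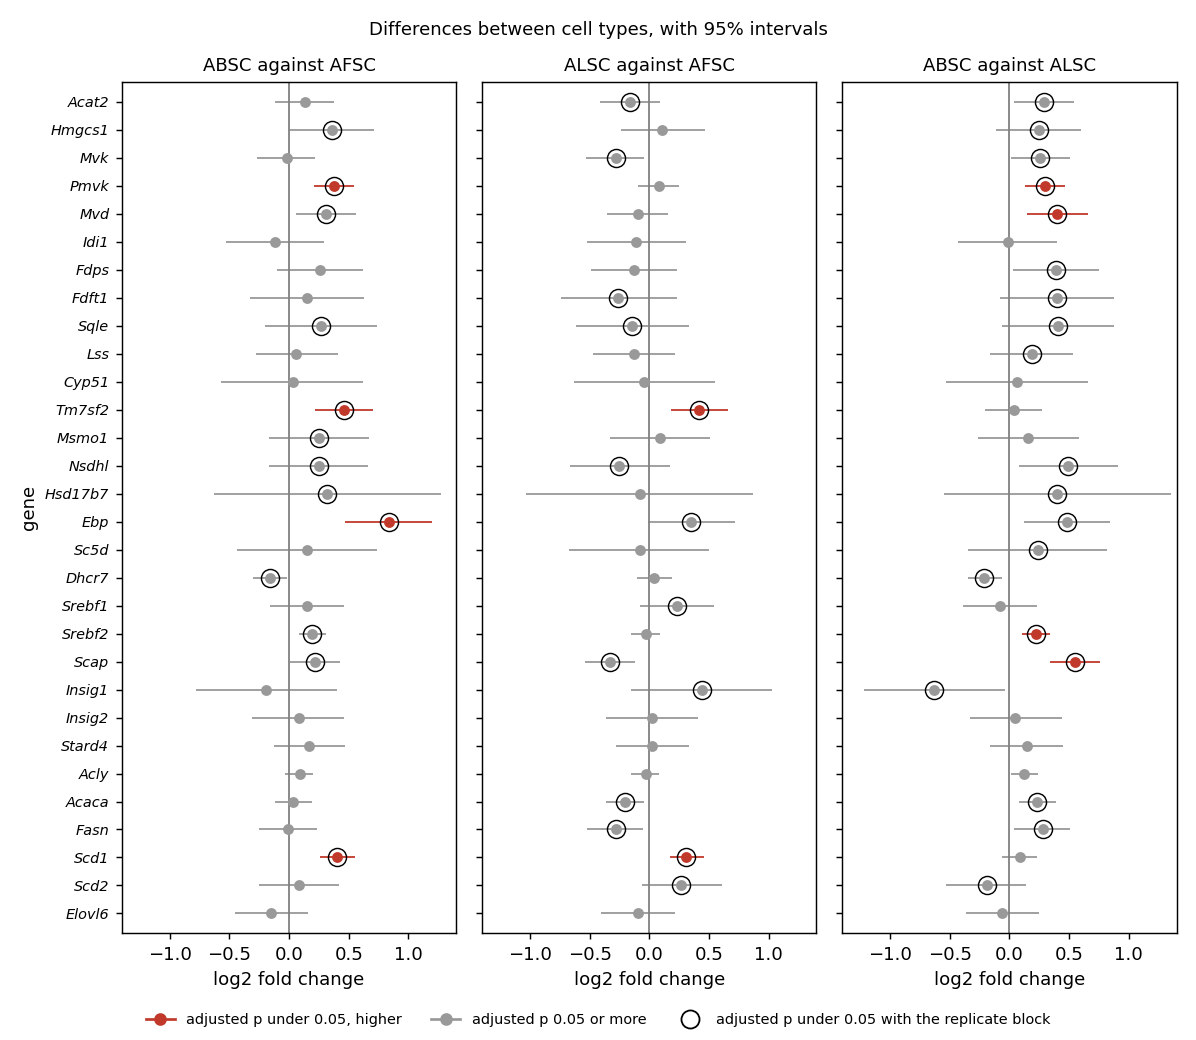
Log2 fold change with 95% interval (horizontal axis) of each gene (down the page) in ABSC against AFSC, ALSC against AFSC and ABSC against ALSC; coloured points passed an edgeR adjusted p under 0.05 and circled points passed with library number as a block. The coloured points number 4, 2 and 4, and the circles 13, 14 and 20.

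Sqle shows how the block bears on a sterol gene. Its means were 309 ± 62.7 CPM in ABSCs and 232 ± 58.9 CPM in ALSCs, against 256 ± 42.9 CPM in AFSCs (SD, n = 3 each). Without the block, no pair of cell types passed the test (adjusted p = 0.558, 0.77 and 0.249 for ABSC against AFSC, ALSC against AFSC and ABSC against ALSC, edgeR). With it, the adjusted p values in the same order were 0.00259, 0.0487 and 4.39e-05. Hmgcs1 averaged 581 ± 95.6 CPM in ABSCs and 489 ± 92.3 CPM in ALSCs, against 453 ± 55.8 CPM in AFSCs, with adjusted p in the same order of 0.241, 0.758 and 0.367 without the block and 0.000143, 0.174 and 0.00178 with it. Fasn averaged 1803 ± 108 CPM in ABSCs and 1489 ± 222 CPM in ALSCs, against 1812 ± 170.2 CPM in AFSCs, and was lower in ALSCs than in AFSCs with the block only (adjusted p = 0.154 without and 0.000808 with it). Srebf2 missed the threshold in ABSCs against AFSCs without the block (0.0538) and passed with it (0.00502). Cyp51 did not pass in any pair of cell types with or without the block, though it was called in ABSC against ALSC when the libraries numbered 1 were left out; its intervals without it ran from -0.57 to 0.62, -0.63 to 0.55 and -0.53 to 0.66 on the log2 scale.

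Asked over all 3 cell types at once, 6 genes differed among cell types (14.8% of tested genes): Pmvk, Tm7sf2, Ebp, Srebf2, Scap and Scd1. Once number 1 was a term of its own, 24 of 30 did (40.3%). The other 6 were Idi1, Cyp51, Insig2, Stard4, Acly and Elovl6. When the variation of log2 CPM was divided between cell type, which has 2 degrees of freedom, number 1, which has 1, and a remainder, the median gene of the 30 had 41.9% by cell type, 51.7% by number 1 and 6.03% left. The median over all tested genes had 40.1%, 20.0% and 22.2%. These were not matched to the 30 in level, and low counts add to the remainder. Number 1 took more than cell type in 17 of the 30 genes, against 37.5% of all tested genes. At one end were Cyp51 (96.2% by number 1), Hsd17b7 (90.0%) and Idi1 (88.7%). At the other were Scd1 (87.7% by cell type), Srebf2 (85.0%), Scap (83.9%) and Pmvk (82.1%). The paralogs Scd1 and Scd2 thus stood on different sides, with 71.5% by number 1 for Scd2; their transcripts share 623 bases at 95.5% identity, and reads from that stretch may be assigned to either.

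**Figure D5:**
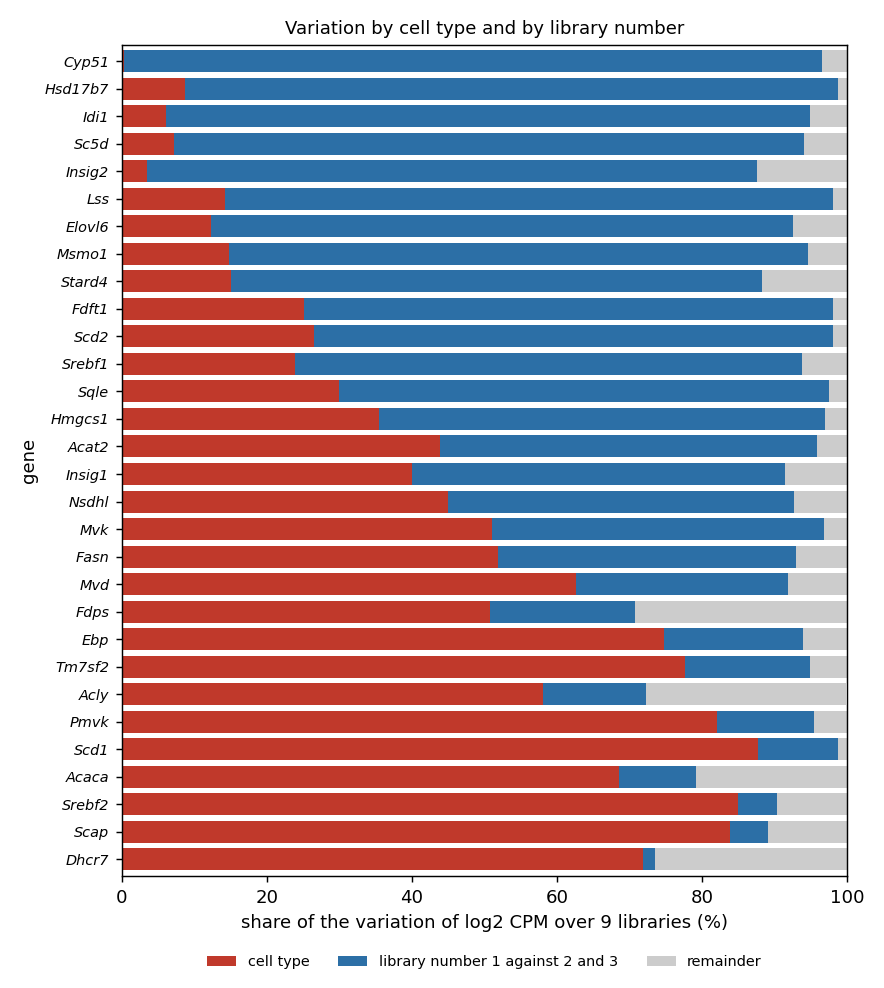
Share of the variation of log2 CPM over the 9 libraries (horizontal axis, percent) that goes with cell type, with number 1 against numbers 2 and 3, and with neither, for each of the 30 genes in order of the share of number 1. Cyp51 at the top has 96.2% by number 1, and Dhcr7 at the bottom has 1.74%.

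Genes of the same pathways outside the 30 were read from 6 further lists, whose counts stand beside 17.7% of all tested genes lower and 19.3% higher in number 1. Of 16 genes of sterol uptake, transport and efflux, 5 were lower in number 1. Among them were Abca1, which exports cholesterol (log2 fold change -1.32 ± 0.22), and Soat1, which esterifies it (-0.26 ± 0.04). Abca1 was low, at a mean of 1.00 CPM in number 1 and 2.52 CPM in numbers 2 and 3. The 3 that were higher, Npc1 (0.31), Lipa (0.29) and Stard3 (0.28), were a share near the 19.3% of all tested genes. Of 9 genes of the isoprenoid branches 5 were lower and 1 higher. Of 3 other sterol enzymes, 2 were lower and 0 higher. Of 7 genes of SREBP processing, 3 were lower and 0 higher. Among these 3 were Mbtps1 and Mbtps2, the proteases that cut SREBP, with log2 differences of -0.13 and -0.20 (adjusted p = 0.0137 and 0.0151, edgeR). Of the 18 other fatty acid synthesis genes tested, 6 were lower and 2 higher. The largest of these differences was that of Fads3 (-1.06), which stood at only 0.919 to 3.40 CPM over the 9 libraries. Of 12 tested genes of fatty acid oxidation, 1 was lower and 3 were higher. The shares that differed in these last 2 lists, 44.4% and 33.3%, were near the 37.0% of all tested genes.

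Between cell types, Cpt1a, the gate of fatty acid oxidation, had 8.01, 7.16 and 5.06 CPM in ABSC 1 to 3 and 9.74, 6.79 and 7.39 CPM in ALSC 1 to 3, against 3.40, 3.54 and 3.99 CPM in AFSC 1 to 3, and was higher in both (adjusted p = 0.0318 and 0.0131, edgeR). Lbr, a sterol reductase with the same activity as Tm7sf2, was higher in ABSCs than in AFSCs (log2 fold change 0.27 ± 0.06) and than in ALSCs (0.24 ± 0.06). Acsl4, an acyl-CoA synthetase, was lower in ABSCs than in AFSCs (log2 fold change -0.65 ± 0.11) and than in ALSCs (-0.46 ± 0.11). Me1, which supplies NADPH, and the elongase Elovl1 were both higher in ABSCs than in AFSCs (log2 fold change 0.51 each). Acss2, which makes acetyl-CoA from acetate, was lower in ABSCs than in ALSCs (log2 fold change -0.88 ± 0.22, adjusted p = 0.0302, edgeR).

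Other gene groups moved with library number 1 beside the sterol genes, and their part in these results was not tested. Of 12 low-oxygen response genes tested, 11 were higher in number 1 (19.3% of all tested genes were higher), with a median log2 difference of 1.22 and a summed level of 4578 to 5445 CPM in number 1, against 3154 to 4132 CPM in numbers 2 and 3. Vegfa gave 1.55. Adm gave 3.40 but was near the floor in numbers 2 and 3 (0.141 to 0.658 CPM). Of 10 genes of the ATF4 stress response, 7 were higher (again beside 19.3%), with a summed level of 1776 to 2458 CPM, against 1084 to 1194 CPM, and Chac1 gave 2.45. Of the 4 tested trophoblast stem cell markers, 3 were lower in number 1 (17.7% of all tested genes were lower), and the 6 listed markers summed to 157 to 189 CPM, against 238 to 294 CPM. The difference of these sums lay mainly in Eomes, at a mean of 56.5 CPM in number 1 and 155 CPM in numbers 2 and 3. Esrrb stood at 104 and 100 CPM. Eomes averaged 117 CPM in ABSCs, 127 CPM in ALSCs and 122 CPM in AFSCs. Summed levels of the fibroblast markers were 18.1 to 25.1 CPM in number 1, against 10.1 to 18.9 CPM in numbers 2 and 3, with Thy1 higher among the 5 tested (0.86). Between cell types, the trophoblast factor Cdx2 was the 1 marker of these 4 that was higher in ABSCs than in AFSCs, at 0.835, 6.43 and 6.07 CPM in ABSC 1 to 3, against 0, 0.142 and 0.235 CPM in AFSC 1 to 3. Of the 5 epiblast markers, Pou5f1 and Nanog were higher and Fgf5, Otx2 and Sox2 lower in ABSCs than in AFSCs (7.98% of tested genes differed). Fgf5, a growth factor of the primed epiblast, had 18.3, 13.5 and 17.2 CPM in ABSC 1 to 3, against 189, 184 and 193 CPM in AFSC 1 to 3 (log2 fold change -3.53).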

How the data were processed

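Whole-number counts per gene were deposited by the authors in 1 table of 9 libraries, made with HISAT2 2.0.5 and featureCounts 1.5.0-p3 per the submitters' processing notes. The notes name mm9, but 27 of the 30 genes have the coordinates of GENCODE M21 (GRCm38). Scd1 and Scd2 differ slightly at their ends. Tm7sf2 runs to 6077197 instead of 6068373 and so overlaps Vps51. The library kit does not mark strand, per the labels' protocols, so overlapping genes cannot be told apart: Fdft1 and Ctsb share 774 bases, and Hmgcs1 overlaps Gm48342.

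The members and all gene lists were chosen with earlier results of these data known, and number 1 was singled out after its libraries were seen to stand apart. The 346 loci without a gene name (0.208% to 0.227% of counts) were left out. Counts were tested with edgeR 4.0.16 (R 4.3.3; TMM scaling, filterByExpr with a minimum count of 10 and total of 15, robust quasi-likelihood F test) in 16178 genes, with Benjamini-Hochberg adjustment over all of them and a threshold of 0.05. Cell types were compared in a fit of the 3 group means over all 9 libraries; number 1 was compared with numbers 2 and 3 with cell type as a term, and its variation among cell types with an interaction. Intervals are 95%. CPM values are TMM-scaled; variation was divided on log2 CPM with a prior count of 2. DESeq2 1.42.0, other scalings, no filter, library number as a block, and leaving out libraries were alternatives. Deviations of same-numbered libraries from their group means correlated at 0.464 to 0.554 (number 1), 0.197 to 0.287 (number 2) and 0.224 to 0.356 (number 3). Numbers 2 and 3 of different cell types also correlated, at 0.221 to 0.273, which overlaps the ranges of numbers 2 and 3. The block took the numbers as pairs, but these values set only number 1 apart. Replicates differed beyond counting noise. Named were all 30 genes and, of the other lists, up to 3 called genes per comparison with the largest changes; Soat1, Npc1, Lipa, Stard3 and Vegfa were chosen after their values were seen. Some genes of these lists are not reported here. Near-identical copies were sought among GENCODE M21 transcripts (at least 95% identity over 400 bases). Matches were found for 10 of the 30 genes, so their levels are less certain. These were Acaca, Acat2, Elovl6, Fdft1, Fdps, Hmgcs1, Idi1, Scd1, Scd2 and Tm7sf2. Idi1 matched Gm13502 over 684 bases at 100% identity. The code was tested on simulated data.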

Additional observations from a re-analysis of the deposited data

Results flagged for a closer look

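For 4 genes the difference of library number 1 from numbers 2 and 3 varied among the 3 cell types by an edgeR interaction test over all genes. The adjusted p was 0.0379 for Cyp51, 0.0043 for Nsdhl, 0.0211 for Sc5d and 0.00244 for Insig1. Each cell type has 1 library numbered 1, and the test takes its error from the spread of libraries 2 and 3, so it cannot tell a single deviant library from a difference between cell types. The 4 genes of 30 stand beside 8.65% of all tested genes. In all 3 cell types each of these genes was lower in number 1.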

How the results depend on the processing

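None of the called log2 fold changes of the 30 genes changed sign under an alternative; genes that were not called were not followed. Of the 30 genes, the counts in ABSC against AFSC, ALSC against AFSC, ABSC against ALSC and any cell type were 4, 2, 4 and 6. They became 13, 14, 20 and 22 with the replicate block, 14, 15, 21 and 24 with a number 1 term, and 16, 14, 23 and 23 without the 3 libraries numbered 1. Over all genes, the counts of 1291, 1139, 1775 and 2395 became 3132, 3590, 4605 and 5992 with the block, 3457, 3977, 4994 and 6521 with the number 1 term, and 4622, 4122, 5225 and 7121 without number 1. In ABSC against ALSC, library-size scaling called 2 of the 30 genes, Scap and in addition Dhcr7 (lower in ABSCs), and a fit of only the 6 libraries called 1, Scap, and 1041 genes in all. Leaving out 1 library at a time gave 1 to 5, 0 to 2, 1 to 6 and 2 to 6 of the 30, and 667 to 1723, 345 to 1522, 846 to 2337 and 1395 to 3048 of all genes. The lowest counts of the 30 came without ABSC 3 (1, 1, 1 and 2), ABSC 2 (2, 1, 1 and 3), AFSC 2 (2, 0, 2 and 3), AFSC 3 (3, 0, 3 and 4) or ALSC 3 (4, 0, 1 and 5). Without ALSC 1 or ALSC 2, ABSC against ALSC had 2 and ALSC against AFSC had 1, which without ALSC 2 was Scap, a gene not called before; without AFSC 1, ALSC against AFSC had 1, and without ABSC 1, ABSC against ALSC had 6. For number 1, 22 to 24 of the 30 were called throughout, and without the 3 ABSC libraries 3930 of all genes, against 5983. With 3 libraries a group, a difference that was not called is not shown to be absent. Depth does not limit these genes.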
